A study of Mus musculus with 3 samples.

Results

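The keratin-associated proteins, encoded by the Krtap genes, are small structural proteins of the hair shaft. They were read on 3 Affymetrix Mouse Genome arrays of mouse back skin, each hybridized with pooled RNA of 1 group. All probe sets, the array's groups of short probes against a transcript, whose platform gene symbol starts with Krtap were taken, which gave 49 of 45037 probe sets and 44 of 19324 listed genes. Of the 49, 43 list 1 gene and 6 list several genes, and 38 of the 44 genes have a probe set of their own. A probe set that lists several genes is given here by its Krtap number only. Matching by current gene identifier added 0 members.

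The WT group was male C57BL/6J mice fed an AIN-93-based diet. The KO group was male interleukin-10 knockout mice on the same diet, homozygous for the B6.129P2-IL-10tm1Cgn/J allele in the F2 of a cross with C57BL/6J. The KOE group was male mice of the same knockout, given a diet with 8% powdered eggshell membrane (pESM), in which casein and corn starch were lower. There were 5 mice in the WT group, 7 in KO and 6 in KOE. Feeding began at 4 weeks of age and lasted 28 weeks, and each array received 250 ng of pooled RNA. White fat of the dermis had been taken off the skin before extraction. The sources used here do not give which mice entered each pool, nor the hair cycle stage of the skin. The interleukin-10 allele was altered in every cell of the KO and KOE mice, and the F2 mice may also differ from C57BL/6J at other loci. Since each group is 1 array, differences have no replicate check, no error over mice can be given and no test was run.

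In a growing follicle, cells of the hair matrix divide around the dermal papilla, move up and differentiate into the hair shaft and its inner root sheath. Cortex and cuticle cells of the shaft fill with hair keratins, and the keratin-associated proteins are laid down as the matrix between these keratin filaments, linked to them by disulfide bonds. The family is divided by composition into high-sulfur and ultrahigh-sulfur proteins, which are rich in cysteine, and glycine-tyrosine-rich proteins, which hold more glycine and tyrosine. Follicles pass through growth, regression and rest, and these genes are known as genes of the growth phase. Their genes lie in clusters, so neighbours are often close copies and their probe sets may share transcripts.

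By Krtap number, 14 probe sets were high-sulfur (numbers 1, 2, 3, 10, 11, 12, 13, 14, 15 and 26) and 15 were ultrahigh-sulfur (numbers 4, 5, 9 and 17). A further 16 were glycine-tyrosine-rich (numbers 6, 7, 8, 19, 21 and 22). Krtap16-3, Krtap28-13 and Krtap31-1, with 4 probe sets, were not assigned to a class. In the RefSeq gene table of the mouse, 24 of the 49 lie on chromosome 16, 15 on chromosome 11, 6 on chromosome 7, 3 on chromosome 10 and 1 on chromosome 1.

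To show what the members share besides their name, the 80 bases before the annotated start are printed for the members with the highest WT signals of each class and for Krtap19-2, which had the lowest ratio of KO to WT. The sequences are from RefSeq, build GRCm38.p6, 5′ to 3′ on the strand of the gene, and capitals mark TATAAA and TATATAA. Both are forms of the TATA box, the element at which the TATA-binding protein settles before transcription starts. Where the 2 forms overlap, the capitals run together.
Krtap15, high-sulfur, chr16:88828929-88829008, plus strand: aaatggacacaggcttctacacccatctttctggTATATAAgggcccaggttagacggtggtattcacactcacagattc
Krtap1-5, high-sulfur, chr11:99581017-99581096, minus strand: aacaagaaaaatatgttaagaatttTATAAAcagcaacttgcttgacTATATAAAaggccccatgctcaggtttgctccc
Krtap4-1, ultrahigh-sulfur, chr11:99628240-99628319, minus strand: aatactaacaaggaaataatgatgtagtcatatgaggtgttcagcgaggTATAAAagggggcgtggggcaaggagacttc
Krtap4-6, ultrahigh-sulfur, chr11:99665961-99666040, minus strand: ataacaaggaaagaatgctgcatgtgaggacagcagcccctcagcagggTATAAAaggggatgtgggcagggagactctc
Krtap8-1, glycine-tyrosine-rich, chr16:89487953-89488032, minus strand: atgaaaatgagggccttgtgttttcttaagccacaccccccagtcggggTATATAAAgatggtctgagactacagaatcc
Krtap22-2, glycine-tyrosine-rich, chr16:89010760-89010839, minus strand: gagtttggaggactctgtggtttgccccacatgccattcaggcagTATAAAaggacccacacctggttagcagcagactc
Krtap19-2, glycine-tyrosine-rich, chr16:88874270-88874349, minus strand: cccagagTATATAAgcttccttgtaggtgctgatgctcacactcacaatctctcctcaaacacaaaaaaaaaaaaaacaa

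In Krtap4-1 and Krtap4-6 the first base of TATAAA lies 31 bases before the start, and the sequences on either side of it are alike. In Krtap22-2 it lies 35 bases before the start. Krtap8-1 holds TATATAA at 31 bases, and Krtap15 holds it farther away, at 46 bases. Krtap1-5 has a TATAAA at 55 bases and overlapping forms nearer the start, TATATAA at 33 bases and TATAAA at 31. The annotated start of Krtap19-2 has TATATAA at 73 bases, in a window that ends in a run of adenines.

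A promoter was found for 41 of the 44 genes, and the same search was made in all 32851 promoters of the table. In the 250 bases before the start, on both strands, TATAAA was in 32 of the 41 Krtap promoters (78.0%) and in 12.4% of all promoters. TATATAA was in 16 (39.0%) and in 3.04%. On the strand of the gene, with the first base 20 to 40 bases before the start, either form was in 27 of 41 (65.9%) and in 2.37% of all. By class this held for 8 of 12 high-sulfur, 10 of 13 ultrahigh-sulfur and 6 of 13 glycine-tyrosine-rich promoters, and for all 3 not assigned. TATATAA was added to the search after the promoters had been read. Many of these promoters belong to neighbouring copies and are not independent of each other.

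**Figure D1:**
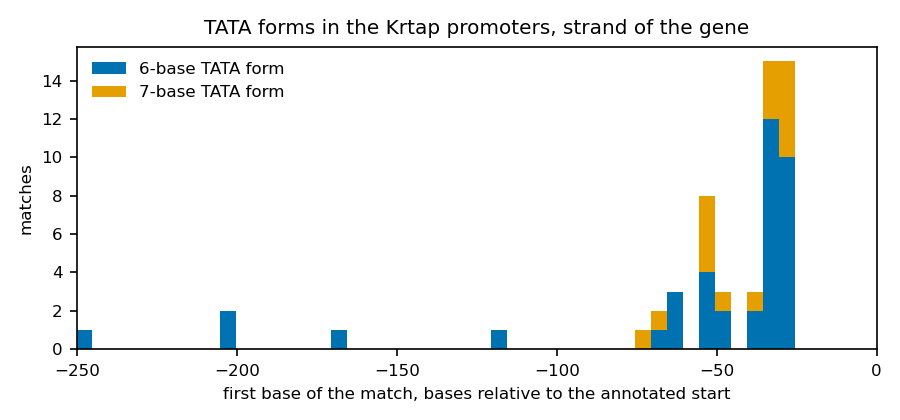
Number of matches to the 6-base form (TATAAA) and the 7-base form (TATATAA) on the strand of the gene, against the distance of the first base from the annotated start in bases, for 41 Krtap promoters. Most matches lie 20 to 40 bases before the start, and 27 of the 41 promoters hold a match there.

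Motifs of factors known in the hair matrix were also searched in the same 250 bases on both strands. The LEF1/TCF forms CTTTGAT and CTTTGAA were in 2 and 6 of the 41 Krtap promoters (4.88% and 14.6%), against 3.21% and 4.46% of all promoters. CTCGTAAA, a form bound by posterior HOX proteins such as HOXC13, was in 1 (2.44%), against 0.110% of all. CCAATAAA was in 0 of the 41, against 1.02% of all. These matches describe letters in the window and not binding.

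The signals are linear array units scaled by the authors so that each array has a 2% trimmed mean of 500.003, and the median over all probe sets was 116 in WT, 96.3 in KO and 107.5 in KOE. A signal of at least 40 was reached by 68.3%, 65.3% and 69.5% of all probe sets. A member was counted as past the cut-off where the ratio of 2 signals was at least 1.5 and at least 1 of them reached 40. Signals of different probe sets cannot be ranked as RNA levels, so each probe set was compared with itself across arrays. The Il10 probe set read 17.02 in WT and was higher on the arrays labelled KO (679.9) and KOE (401). The sources used here do not say which part of the altered allele its probes match, so it is no check of the knockout. The epidermal keratins Krt5 (19214 in WT, 23513 in KO, 24499 in KOE) and Krt14 (20926, 21861 and 22650) were far above 40 on all 3 arrays, so defining markers of the labelled tissue were present.

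Every Krtap probe set was lower in KO than in WT. In WT all 49 reached 40 and 44 reached 1000, with signals from 66.5 to 24756 and a median of 6611. In KO 11 of 49 reached 40 (22.4%), with signals from 0.891 to 311 and a median of 16.7. The WT and KO ranges overlap across probe sets, but within each probe set WT was above KO. All 49 were lower past the cut-off and 0 were higher, where the shares over the whole array were 14.5% lower and 7.58% higher. The median log2 ratio of KO to WT was −8.15 over the members and −0.05 over all probe sets. In such bulk RNA, fewer hair-forming cells and less RNA per cell cannot be told apart.

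For most members the size of the difference is a bound. Array signals under 40 are near the background, and ratios to such values have no fixed size. With every signal under 40 set to 40, the median log2 ratio was −7.32. Where KO was under 40, the fold below is therefore given as at least the WT signal divided by 40. Where both arrays had to reach 40, 11 members were left and all 11 were lower in KO. By the same rule, 4091 probe sets of the whole array were lower in KO and 2229 were higher.

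**Figure D2:**
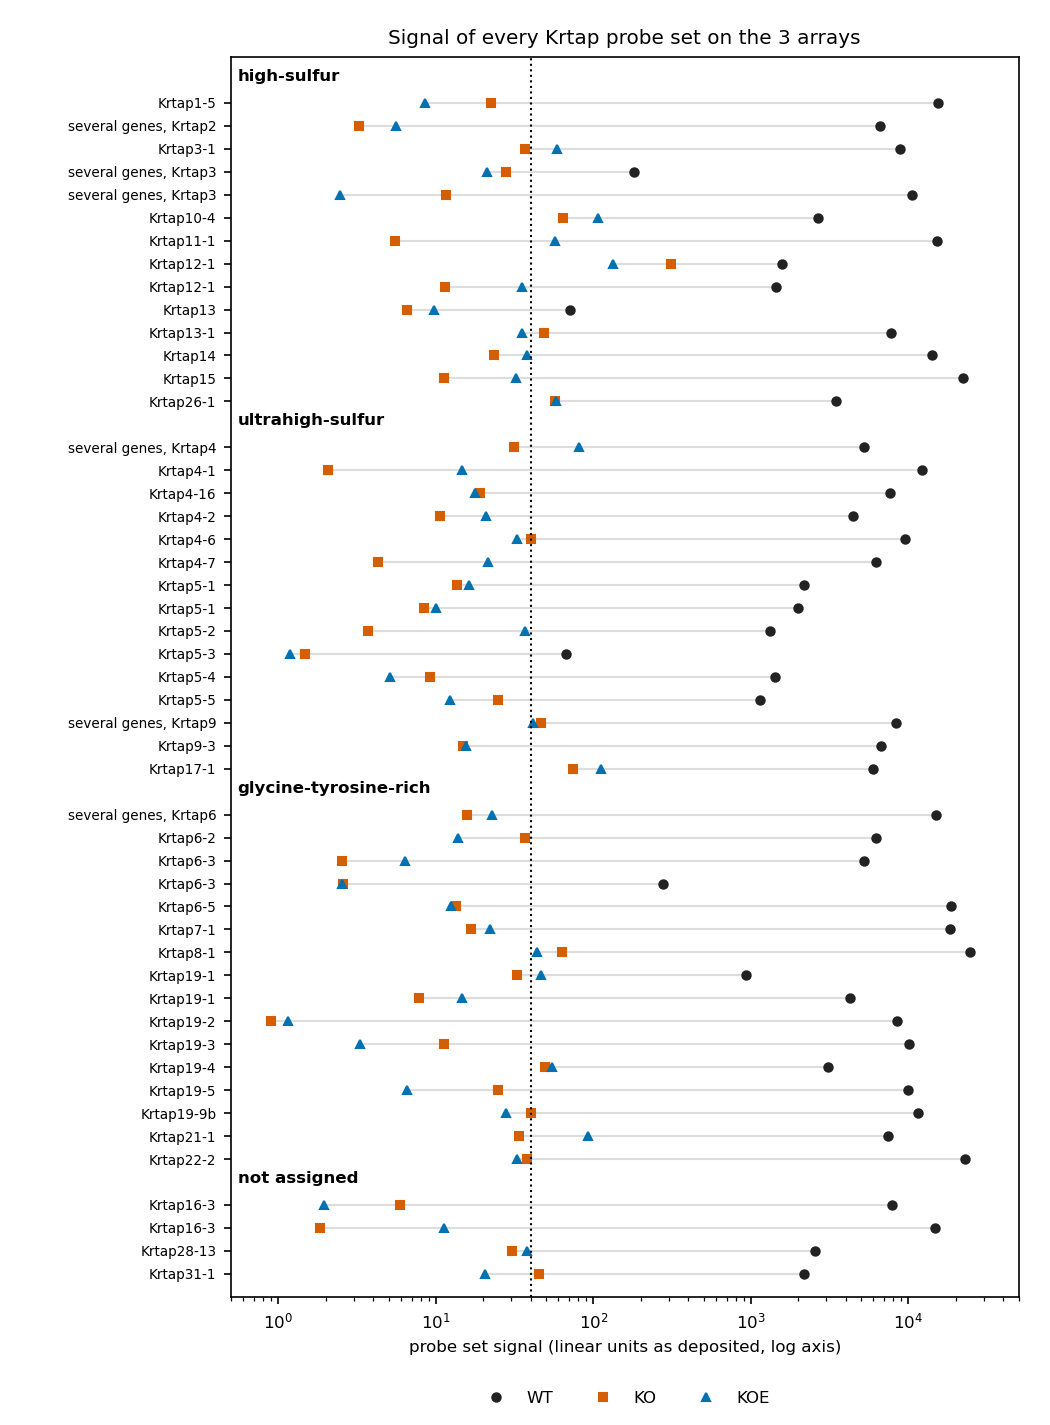
Signal of each of the 49 Krtap probe sets (linear units as deposited, log axis) in WT, KO and KOE, 1 array each, ordered by class and Krtap number, with a dotted line at 40. Every WT point lies to the right of its KO and KOE points, and 11 KO points and 12 KOE points reach 40.

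Among the high-sulfur members, Krtap15 had a WT signal of 22309.9, against 11.3 in KO and 32.3 in KOE, at least 558-fold lower in KO. Krtap1-5 had 15418, 22.3 and 8.51, at least 385-fold lower in KO. Krtap11-1 had 15181, 5.48 and 57.2. It was at least 379.5-fold lower in KO and is 1 of 5 high-sulfur probe sets that reached 40 in KOE. Krtap14 had 14099, 23.5 and 37.6, and Krtap13-1 had 7713, 48.2 and 35.1. A probe set of the Krtap3 number that lists several genes had 10509 in WT, 11.6 in KO and 2.48 in KOE. Krtap3-1 had 8831, 36.9 and 59.1, and a probe set of the Krtap2 number that lists several genes had 6611, 3.26 and 5.54. In all of these the WT signal stood apart from KO and KOE, which lay near the limit or under it.

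The smallest high-sulfur differences were of members with a weak WT signal or a KO signal above 40. Krtap13 had 70.7 in WT, 6.56 in KO and 9.66 in KOE, at least 1.77-fold lower in KO. The other several-gene probe set of the Krtap3 number had 181, 27.8 and 21.2, at least 4.51-fold lower. Krtap10-4 had 2664, 64.1 and 106, so KO was 41.5-fold lower with both signals above the limit. Krtap26-1 had 3489.8, 57.4 and 57.7, and KO was 60.8-fold lower. Krtap12-1 had 1579, 311 and 134. Its KO signal was 5.08-fold lower than WT, and its second probe set is given below.

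Among the ultrahigh-sulfur members, Krtap4-1 had 12138 in WT, 2.08 in KO and 14.7 in KOE, at least 303-fold lower in KO. Krtap4-6 had 9579, 40.2 and 32.5, and KO, just at the limit, was 238-fold lower. The probe set of the Krtap9 number that lists several genes had 8323, 46.5 and 41.6, 179-fold lower in KO. It is 1 of 3 of the class that reached 40 in KO. Krtap4-16 had 7586, 18.9 and 17.7, Krtap9-3 had 6711, 14.9 and 15.5, and Krtap4-7 had 6213, 4.28 and 21.5. Krtap4-2 had 4459, 10.6 and 20.7. Krtap17-1, the third that reached 40, had 5922 in WT, 74.3 in KO and 113 in KOE, 79.7-fold lower in KO.

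The 6 probe sets of the Krtap5 number lie on chromosome 7, and 0 of the 6 reached 40 in KO or KOE. Krtap5-1, the first of these, had 2170.1 in WT, 13.7 in KO and 16.2 in KOE. Krtap5-2 had 1326.5, 3.73 and 36.8, and Krtap5-4 had 1429.6, 9.19 and 5.11. Krtap5-5 had 1135, 24.9 and 12.3, at least 28.4-fold lower in KO. Krtap5-3 had 66.5, 1.47 and 1.18, and its bound is at least 1.66-fold. The median log2 ratio of KO to WT was −7.30 over the 6 of this number and −8.68 over the 6 of the Krtap4 number. The bound from a signal of 40 is smaller where WT is lower, so the 2 numbers cannot be set in order by these values.

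Among the glycine-tyrosine-rich members, Krtap8-1 had 24756 in WT, 63.2 in KO and 43.7 in KOE, 392-fold lower in KO with both signals over the limit. Krtap22-2 had 22914, 37.7 and 32.8, at least 573-fold lower. Krtap6-5 had 18609, 13.4 and 12.5, at least 465-fold lower. The 3 KO signals differ, and each lies far below its own WT signal. Krtap7-1 had 18303, 16.7 and 21.995, and a several-gene probe set of the Krtap6 number had 15056, 15.8 and 22.8. Krtap6-2 had 6261, 36.9 and 13.9. These too lay under 40 in KO and KOE.

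The Krtap19 number, on chromosome 16, has 7 probe sets and spans both ends of the class. Krtap19-2 had 8519 in WT, 0.891 in KO and 1.15 in KOE. Its log2 ratio of −13.22 was the lowest of all 45037 probe sets, but its bound is at least 213-fold, lower than that of Krtap22-2. Krtap19-9b had 11518.5, 40.4 and 27.9, 285-fold lower in KO. Krtap19-3 had 10042, 11.3 and 3.28, and Krtap19-5 had 9869.6, 24.96 and 6.56. Krtap19-4 had 3074, 49.3 and 54.6, and its KO signal, above the limit, was 62.4-fold lower than WT. Krtap21-1, of another number, had 7367 in WT, 33.6 in KO and 92.9 in KOE, at least 184-fold lower in KO.

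Of the members without a class, Krtap16-3 had 14854 in WT, 1.84 in KO and 11.2 in KOE at the stronger of its probe sets, at least 371-fold lower in KO. Krtap28-13, the member on chromosome 1, had 2552, 30.6 and 37.7, at least 63.8-fold lower. Krtap31-1 had 2165, 45.3 and 20.4, and its KO signal, over 40, was 47.8-fold lower than WT.

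The classes did not separate. The median log2 ratio of KO to WT was −7.61 over the 14 high-sulfur probe sets, with a range of −11.44 to −2.35. It was −7.88 over the 15 ultrahigh-sulfur probe sets (−12.51 to −5.50) and −8.85 over the 16 glycine-tyrosine-rich probe sets (−13.22 to −4.82). With signals under 40 set to 40, the medians were −7.35, −6.80 and −7.84, so the first 2 changed places. The 3 ranges overlap over most of their length. Of the same classes, 4 of 14, 3 of 15 and 3 of 16 reached 40 in KO. All members of each class were lower past the cut-off, and no difference between classes is given as a result.

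**Figure D3:**
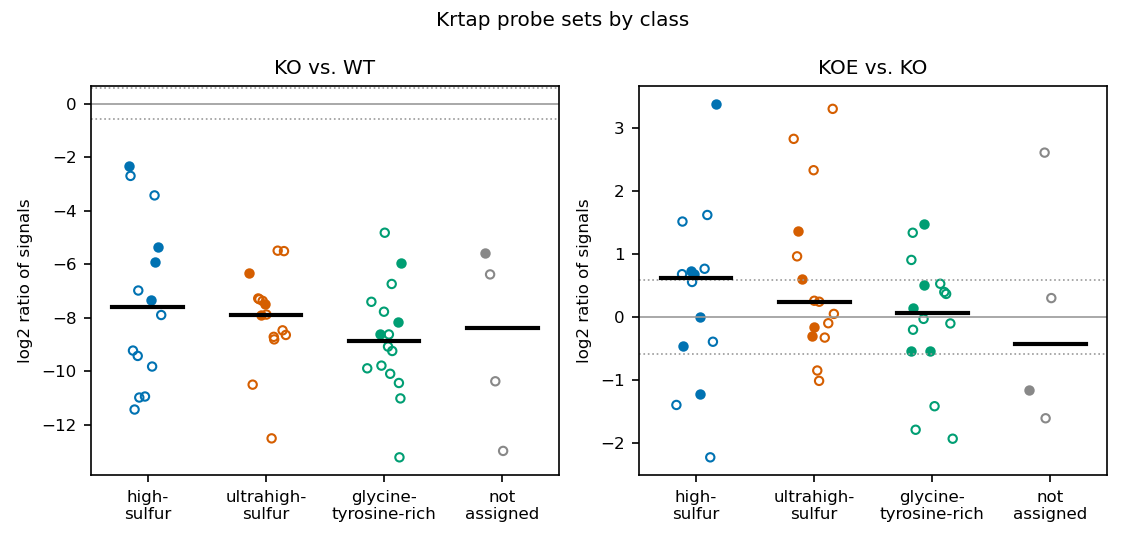
Log2 ratio of signals for KO vs. WT and KOE vs. KO by class, 1 point a probe set, with a bar at the class median and dotted lines at a ratio of 1.5 in either direction. Open points have a KO signal under 40 in KO vs. WT, and both signals under 40 in KOE vs. KO. The medians for KO vs. WT are −7.61, −7.88, −8.85 and −8.38, and those for KOE vs. KO are 0.62, 0.24, 0.06 and −0.42.

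The 5 genes with a second probe set show how far such ratios can be read. Both probe sets of Krtap5-1 were close, since the second had 1984 in WT, 8.40 in KO and 10.05 in KOE. The second probe set of Krtap16-3 had 7898, 5.93 and 1.95. Krtap19-1 had 932, 32.9 and 46.6 at its weaker probe set and 4262, 7.86 and 14.7 at its stronger. Both were lower in KO, by at least 23.3-fold and at least 107-fold. Krtap6-3 had 5261, 2.53 and 6.41 at its stronger probe set and 275, 2.57 and 2.52 at the other.

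Krtap12-1 is where 1 of 2 probe sets was above the limit in KO and KOE and the other was not. Beside the values given above (1579 in WT, 311 in KO and 134 in KOE), its second probe set had 1452, 11.5 and 35.2. The WT signals are alike and the KO signals are not. KOE is lower than KO at the first probe set and higher at the second, where both are under 40. The probe sets of Krtap16-3 also ran opposite ways in KOE vs. KO, with all their KO and KOE signals under 40. Those of Krtap6-3, also under 40 on both arrays, had ratios of 2.53 and 0.98, the second close to no change. The SD of log2 ratios between probe sets of a gene was 2.55 for KO vs. WT over these 5 genes, and 0.92 over 9010 genes of the array with several probe sets. For KOE vs. KO the values were 1.67 and 0.89.

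In KOE the Krtap signals lay near those of KO. Of the 49, 12 reached 40 (24.5%), the range was 1.15 to 134 and the median was 21.2. Past the cut-off, 6 were higher in KOE than in KO (12.2%) and 2 were lower (4.08%). Over the whole array 10.5% were higher and 4.29% were lower. Both signals were under 40 for 33 of the 49, and for 12474 of the 45037 probe sets of the array. A probe set with both signals under 40 cannot pass the cut-off, so these shares do not have like bases. The median log2 ratio of KOE to KO was 0.24, beside 0.07 over all probe sets, and 28 members lay above 0 and 21 below it. This comparison shares its KO array with that of KO vs. WT.

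The 6 higher members came from 3 classes. Krtap17-1 had 74.3 in KO and 113 in KOE, a ratio of 1.51, and Krtap10-4 had 64.1 and 106, a ratio of 1.66. These 2 are the members that were above the limit on both arrays. Krtap3-1 went from 36.9 to 59.1, a ratio of 1.60, and Krtap21-1 from 33.6 to 92.9, a ratio of 2.77. The several-gene probe set of the Krtap4 number had 31.5 in KO and 81.0 in KOE, a ratio of 2.57. Krtap11-1 had 5.48 and 57.2, a ratio of 10.4 that starts from a KO signal far under 40. Each of the 6 KOE signals was still at least 25.1-fold below the WT signal of its probe set.

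The 2 lower members were Krtap12-1, at 311 in KO and 134 in KOE, and Krtap31-1, at 45.3 and 20.4. The second probe set of Krtap12-1 ran the other way, as given above. The split of higher against lower depended on the scaling and was 3 to 6 after the arrays were set to a common median, 3 to 7 after quantile normalization and 5 to 3 after cyclic loess normalization. The split over the whole array moved with the scaling too. It was 4710 to 1932 as deposited, and 3451 to 3272, 3119 to 3115 and 2797 to 2843 after these scalings. Where both arrays had to reach 40 it was 2 to 1 over the members and 2065 to 985 over the whole array. By class, 3 high-sulfur, 2 ultrahigh-sulfur and 1 glycine-tyrosine-rich probe sets were higher. The class medians of the log2 ratio were 0.62, 0.24 and 0.06, and each was 0 with signals under 40 set to 40.

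**Figure D4:**
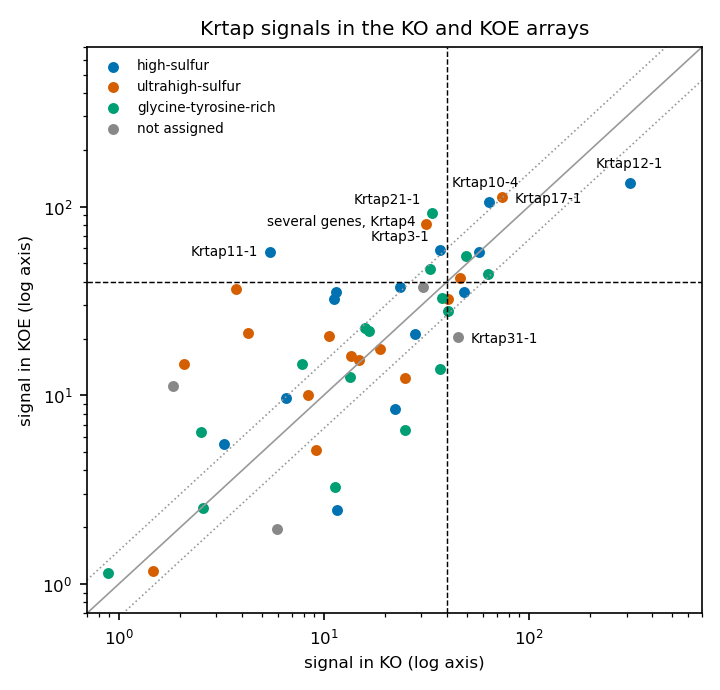
Signal in KOE against signal in KO for the 49 Krtap probe sets (linear units, log axes), colored by class, with dashed lines at 40, a solid line of equal signals and dotted lines at a ratio of 1.5. The 8 named probe sets passed the cut-off, 6 higher and 2 lower in KOE, and 33 probe sets lie under 40 on both axes.

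Against WT, KOE was lower at all 49 members and higher at 0 past the cut-off, beside 10.7% lower and 9.76% higher over the whole array. The median log2 ratio of KOE to WT was −8.13, with a range of −12.85 to −2.87. It was −7.50 for the high-sulfur, −7.64 for the ultrahigh-sulfur and −9.26 for the glycine-tyrosine-rich members. Krtap8-1, with 43.7 in KOE, was 567-fold lower than in WT. The WT array is shared with the comparison of KO vs. WT, and the direction was the same at every member.

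The keratins that the keratin-associated proteins bind were lower in KO too. Of 12 hair cortex and cuticle keratins, 11 were lower past the cut-off and 0 were higher, with a median log2 ratio of −7.28. Krt34 had 14256 in WT, 5.60 in KO and 7.15 in KOE. Krt33b had 10919.7, 10.8 and 13.3. Krt86, a type II partner, had 10738, 20.2 and 23.5. Krt32, a cuticle keratin, was the exception, at 2323 in WT, 1631 in KO and 831 in KOE. For KOE vs. KO, 0 of the 12 were higher and 3 were lower, and the median log2 ratio was 0.18.

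The inner root sheath, which molds the shaft from outside, followed the same direction. All 9 genes of its list were lower in KO, with a median log2 ratio of −7.80, and 4 were lower and 0 higher in KOE than in KO (median −0.40). Krt25, an inner root sheath keratin, had 31928, 51.5 and 21.4. Krt71, of the same layer, had 18156, 81.5 and 28.2. Both were far above 40 in WT and near it in KO and KOE.

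Regulators and enzymes of the hair matrix were lower as well, by less. Of 25 such genes, 17 were lower in KO and 1 was higher, with a median log2 ratio of −2.17. With signals under 40 set to 40, that median was −1.16, beside −7.32 over the Krtap probe sets. Hoxc13, a transcription factor of hair keratin genes, had 1650.2 in WT, 259 in KO and 319 in KOE. Foxn1, the factor altered in nude mice, had 713, 126 and 164, and Lef1, the nuclear partner of Wnt signaling, had 972, 186.5 and 256. Shh, the signal of matrix cells, had 748, 18.2 and 59.1. In KO 21 of the 25 reached 40, against 11 of the 49 Krtap probe sets. Bmp2, a growth factor, was the 1 that was higher, at 1272, 2163 and 2126. In KOE vs. KO, 4 of the 25 passed the cut-off upward and 0 downward (median 0.26).

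**Figure D5:**
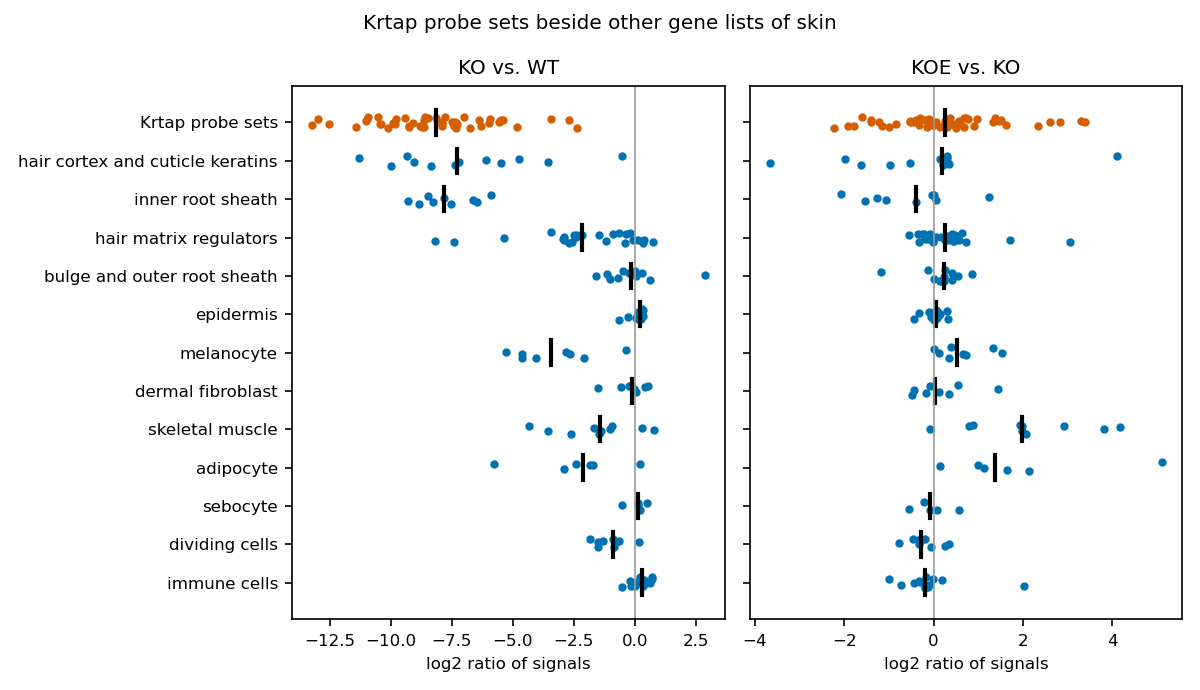
Log2 ratio of signals for KO vs. WT and KOE vs. KO, 1 point a Krtap probe set or a gene of a list, with a bar at each median. For KO vs. WT the Krtap median of −8.15 lies near those of the hair cortex and cuticle keratins (−7.28) and the inner root sheath (−7.80), while the epidermis median is 0.22. With signals under 40 set to 40, which is not drawn, these medians are −7.32, −6.57, −7.54 and 0.22, so their order changes.

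Genes of other cell types of the skin were compared in the same way, and the lists differed in how many of their genes passed the cut-off. Of 14 epidermal genes, 1 was lower and 0 were higher in KO, with a median log2 ratio of 0.22, and of 13 bulge and outer root sheath genes 4 were lower and 2 were higher (median −0.15). The 4 lower were Lgr5, Lhx2, Krt16 and Krt75, with Lgr5 at 1825 on the WT array against 895 on the KO array. Krt75 had 7435 and 2513 on these arrays. The 2 higher were Nfatc1 and Krt6b. Krt15, of the follicle's bulge, did not pass the cut-off in KO vs. WT. Its signals were 25179.8, 30938 and 31032 on the WT, KO and KOE arrays. Of 5 sebocyte genes 0 passed the cut-off in KO vs. WT (median 0.16), and of 8 dermal fibroblast genes 1 was lower (median −0.09). Of the dividing-cell genes, 8 of 9 were lower (median −0.87), with Mki67 at 3264, 1163 and 1121. Immune-cell genes were higher in 2 of 13 (median 0.28).

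Melanocyte, adipocyte and muscle genes were lower in KO along with the Krtap members. Of 8 melanocyte genes, 7 were lower (median −3.43), and Tyr, which encodes the enzyme of pigment synthesis, had 1266 in WT, 32.9 in KO and 51.9 in KOE. In KOE vs. KO, 4 of the 8 were higher and 0 were lower (median 0.52). Of 6 adipocyte genes, 5 were lower in KO (median −2.12) and 5 were higher in KOE than in KO (median 1.38). Adipoq had 2194, 296 and 1289. Of 10 skeletal muscle genes, 8 were lower and 1 was higher in KO (median −1.43), and 9 were higher in KOE than in KO (median 1.97). Myh4, a fast myosin, had 4309, 217 and 3926. The summed signal of the list was 16425 in WT, 2562 in KO and 3590.2 in KOE for melanocytes and 19906, 6569.9 and 12906 for adipocytes. For skeletal muscle it was 27151, 9755 and 38326, and 0 genes of the 3 lists had a signal of 0. So 14 adipocyte and muscle genes and 4 melanocyte genes passed the cut-off upward in KOE vs. KO. Of the 49 Krtap probe sets 6 did, and 33 could not, with both signals under 40. The part of these cell types in the Krtap values was not tested.

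Scanning the whole array for the same pattern showed how many other probe sets share it. A signal of at least 1000 in WT and under 40 in KO was found for 60 of 7110 probe sets that reached 1000 in WT (0.844%). Of the 60, 33 were Krtap, which is 55% of the pattern and 75% of the 44 Krtap probe sets that reached 1000. A further 8 are unnamed here and 19 list 1 other gene. In KOE 50 of the 60 were under 40, and 29 of the 33 Krtap.

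Among the 19 were the hair keratins Krt33b, Krt34, Krt35 and Krt86, the inner root sheath genes Krt26 and Tchhl1, and Padi3, an enzyme that converts arginine of hair proteins to citrulline. Gprc5d, a receptor of hair-forming cells, had 5615 in WT, 35.3 in KO and 6.17 in KOE. Predicted genes without a Krtap name were found as well. Gm10229 had 19454, 26.02 and 29.5, Gm10228 had 16385, 22.2 and 8.36, and Gm11559 had 10683, 5.51 and 0.839. Gm10228 and Gm11559 are also listed beside Krtap names on shared probe sets. The rule by name leaves probe sets that list only such genes out of the 49. Defb8, a defensin, was the 1 of the 19 that reached 1000 in KOE, at 3384 in WT, 21.5 in KO and 1439 in KOE. Ordered by the log2 ratio with signals under 40 set to 40, the lowest 20 probe sets of the array held 12 Krtap and the lowest 50 held 29.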

How the data were processed

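Total RNA from back skin was pooled by group and hybridized to 3 Affymetrix Mouse Genome arrays, 1 a group. Signal intensity values on a linear scale were deposited by the authors, who used R and the Microarray Analysis Suite of Affymetrix. Each array was checked to have a 2% trimmed mean of 500.003. Raw images and detection calls were not used here, and the number of arrays limits the precision.

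Of 45101 probe sets, 64 controls were left out. In the platform annotation 34945 list 1 gene, 932 several and 9160 are unnamed here. Deposited signals were divided for each of the 3 pairs of groups. The ratio of 1.5 and the signal of 40 follow the methods, which do not say which array must reach 40. At least 1 of the 2 arrays was used here. The class of a member follows its Krtap number. Krtap16 was moved from the high-sulfur class to not assigned after the files were seen. The members and lists were chosen with earlier results of these data known. For genes of the lists, the probe set with the largest mean over the arrays was used.

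Named members are, per class, those with the 6 highest WT signals, the 3 lowest and 3 highest ratios of KO to WT, members past the cut-off in KOE vs. KO, and genes with several probe sets. The remaining members were added after their values were seen, as were the promoters printed besides that of Krtap19-2. Genes outside the family were also chosen after their values were seen. Other settings were 40 in both arrays, a signal limit of 100, a fold limit of 2, other scalings (common median, quantile and cyclic loess), other treatment of low signals (40 added, or set to 40) and other choices of probe sets. Counting was tested on simulated data with changes placed only in probe sets well above the limit of 40, so calls near that limit were not tested. The tools were Python 3.11.15 (numpy 2.4.6, pandas 2.3.3, matplotlib 3.10.9) and R 4.3.3 (limma 3.58.1).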

Additional observations from a re-analysis of the deposited data

How the results depend on the processing

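The direction of KO vs. WT and KOE vs. WT at the members did not change under any alternative run, and the counts of higher members stayed at 0. Only the other scalings (common median, quantile and cyclic loess) could have turned it. Stricter limits, changes to low signals and smaller choices of probe sets cannot reverse the order of 2 signals, so those runs are no check of the direction. Of the alternative values, 140 did not turn sign and stayed within 1.5 times (counts) or within the SD between probe sets of 1 gene (medians), 26 moved farther and 8 turned sign, the last all in KOE vs. KO. That SD is wider than the KOE vs. KO medians, which were 0 overall and in each class with low signals set to 40. Part of the 140 could not have differed. Matching by current gene identifier added 0 members, and counts of 0 cannot rise under stricter limits or with fewer probe sets. With both arrays at 40 or more, 11 members were below WT in KO and 12 in KOE, and 2 were higher and 1 lower in KOE than in KO. The median log2 ratios were then −6.32 for KO vs. WT, −5.97 for KOE vs. WT, −5.65 for high-sulfur KO vs. WT and −0.19 for glycine-tyrosine-rich KOE vs. KO.

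For KOE vs. KO, a signal limit of 100 gave 2 higher and 1 lower, a fold limit of 2 gave 3 higher, adding 40 gave 3 higher and 1 lower, and setting low signals to 40 gave 1 lower. A common median gave 3 higher and 6 lower and quantile normalization 3 higher and 7 lower. Quantile normalization turned the median to −0.23, the ultrahigh-sulfur median to −0.26 and the glycine-tyrosine-rich median to −0.29. The last was −0.10 with a common median, −0.10 with cyclic loess and −0.028 without probe sets that list several genes. The high-sulfur median was −0.24 over the 2 members that reach 100.

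Adding 40 moved the medians to −6.65 for KO vs. WT, −6.68 for KOE vs. WT and, for KO vs. WT by class, −6.65 (high-sulfur), −6.20 (ultrahigh-sulfur) and −7.21 (glycine-tyrosine-rich). Setting low signals to 40 gave −6.80 and −7.84 for the last 2. With 1 probe set a gene, or with Krtap16-3 counted as high-sulfur (chosen after seeing the data), the high-sulfur median was −8.57. A fold limit has no effect on medians. A common median shifts KO by 0.27 and KOE by 0.11 on the log2 scale relative to WT, far less than the KO vs. WT medians of the members. No paired analysis was possible because each group has 1 array.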
